A study of Drosophila melanogaster with 12 samples.

Results

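The 10 genes described here encode peptidoglycan recognition proteins (PGRPs) of Drosophila melanogaster. They were chosen by gene name, as PGRP-SA, PGRP-SD, PGRP-SB1, PGRP-SC1a, PGRP-SC1b, PGRP-SC2, PGRP-LB, PGRP-LC, PGRP-LE and PGRP-LF, and make up 10 of the 14161 genes in the tables when 1 transcript is kept per gene. PGRP-SA and PGRP-LE are X-linked. PGRP-SD, PGRP-SB1, PGRP-LC and PGRP-LF lie on chromosome arm 3L, PGRP-LB on 3R, and the 3 PGRP-SC genes side by side on 2R. The tables hold 3 more genes of the family, PGRP-LA, PGRP-LD and PGRP-SB2, which are given only for comparison.

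RNA-seq libraries of whole adult flies formed 4 groups of 3 biological replicates. All flies of the stated genotypes were y w. MSL2 females carried 1 copy of the P-element construct H83M2-6I, which expresses msl-2 and is marked with mini-white, and had normal chromosomes 3. Control females and control males lacked the construct and carried the balancer chromosome TM3 over a normal chromosome 3. MSL2 males are labelled as expressing MSL2 ectopically. Their full genotype, the promoter of the construct and the age of the flies are not stated in the labels. In females, an effect of MSL2 and an effect of the presence of TM3 cannot be told apart for any member. This holds for the 5 members on chromosome 3 and for those on other chromosomes. Whether MSL2 males carried TM3 is not stated, so the same limit may apply to MSL2 males against control males. It also bears on the comparison of the effects in females and males. The words transgene effect stand below for these differences between groups.

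PGRPs are the sensors of bacterial cell walls in flies. Short secreted forms, named S, circulate in the blood or act in the gut, and long forms, named L, are mostly membrane or intracellular proteins. Some members bind peptidoglycan and start the Toll or the Imd signalling cascade, which both end in the transcription of antimicrobial peptide genes. Others are amidases, enzymes that cut peptidoglycan and thereby remove the signal. MSL2 is the limiting protein of the complex that raises transcription of the single male X chromosome, and females normally do not make it, so that the X-linked members sit on its target chromosome.

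Total counts ranged from 27729411 to 79622278 per library over the transcripts kept. A floor of 3 counts corresponds to between 0.0377 and 0.108 CPM (counts per library size) without TMM scaling, and it covers counting error only. All other CPM values were scaled by TMM. The lowest value of any member was 2.20 CPM, or 102 counts, for PGRP-SC1b in MSL2 male 2, so all 10 members lay above the floor in every library and all 10 passed the filter on low counts. The msl-2 transcript was at 15.2 to 32.4 CPM in the control libraries and at 391.9 to 616.4 CPM in the MSL2 libraries. The 14 ovary markers include yolk protein genes. Their sums were 16691 to 19613 CPM in control females, 9383 to 15649 CPM in MSL2 females and at most 138 CPM in males. Most of the sums in females came from the yolk protein genes Yp1, Yp2 and Yp3. Their means were 6447, 5740 and 2992 CPM in control females and 4384, 3644 and 2710 CPM in MSL2 females. The part of ovary tissue in these sums was not tested. In whole-fly RNA, fewer cells of a type and less RNA per cell cannot be told apart.

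Of the 10 members, PGRP-SA, PGRP-SD and PGRP-LE rose in MSL2 females against control females and none fell. Over all 13060 genes tested, edgeR's quasi-likelihood test called 10.3% at an adjusted p under 0.05, with 6.62% higher and 3.67% lower. Both X-linked members were called higher, where 22.0% of X-linked genes were. With TMM from autosomal genes alone, 74.9% of 1440 called genes were higher in place of 64.4% of 1344. Of the 8 autosomal members 1 was called higher, where 3.71% of autosomal genes were. The median log2 fold change of the 10 members was 0.06, against -0.01 for all genes tested. In MSL2 males against control males no member was called, beside 0.812% of all genes called. Unadjusted p-values under 0.05 were found for 8 of the 10 members and 3912 of all genes in females, and for 2 members, PGRP-SD and PGRP-SB1, and 1031 of all genes in males. In males PGRP-SB1 was the 1 member called by DESeq2.

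**Figure D1:**
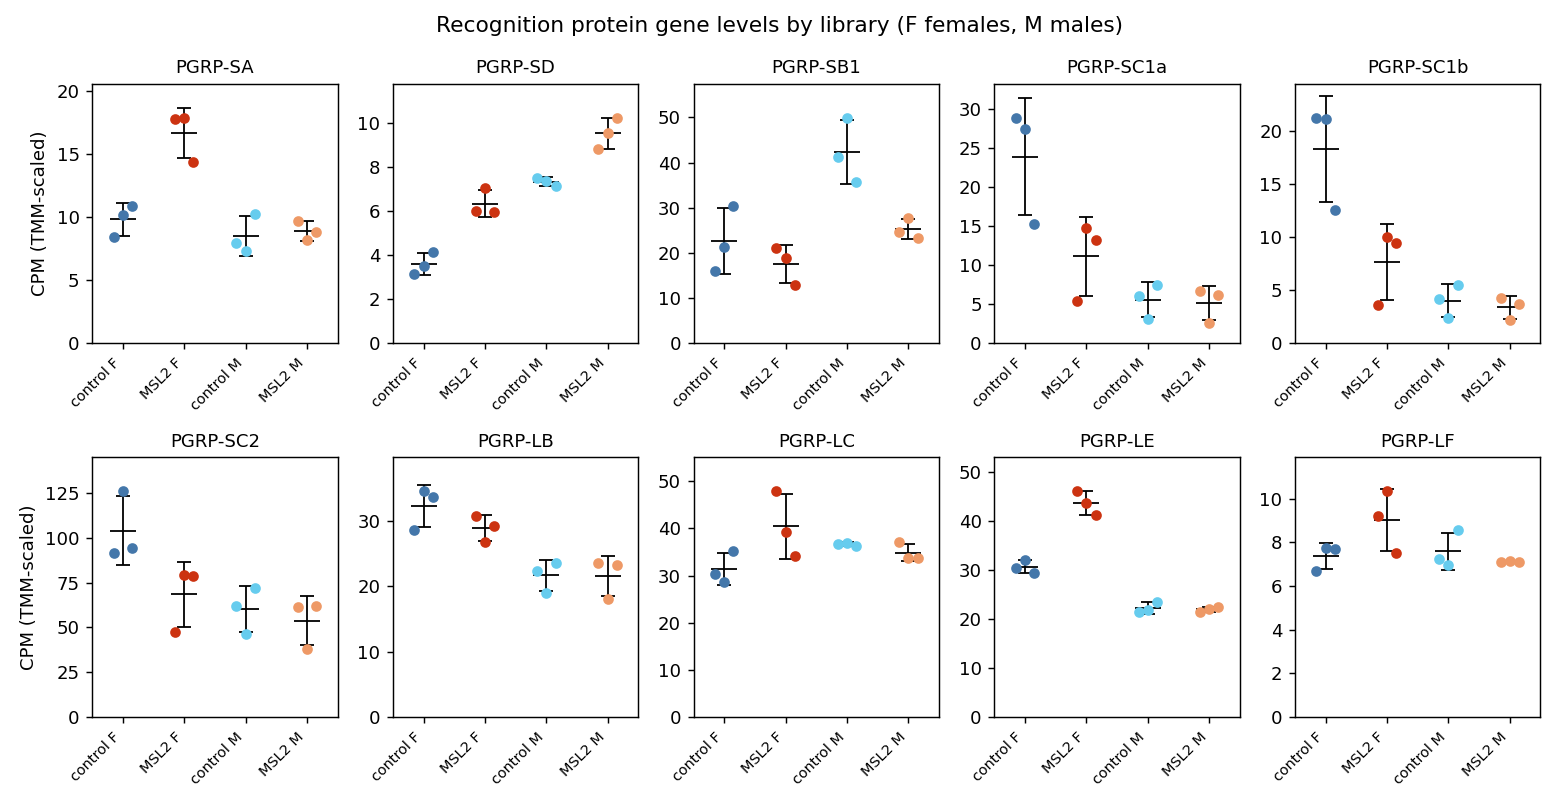
Level of each of the 10 members in the 12 libraries, in CPM on an axis from 0 that differs between panels. Points are libraries and the bars are the group mean and 1 SD (n = 3). The MSL2 female libraries of PGRP-SA and PGRP-LE lie above all other libraries, those of PGRP-SD lie between the control females and the control males, and those of the 3 PGRP-SC genes lie below the control females.

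PGRP-SA, a circulating sensor of the peptidoglycan of Gram-positive bacteria that acts upstream of Toll, was the X-linked member with the larger rise. Its level was 8.40, 10.2 and 10.9 CPM in the control female libraries and 17.8, 17.9 and 14.4 CPM in the MSL2 female libraries. In males it was 7.99, 7.29 and 10.3 CPM in controls and 9.74, 8.22 and 8.79 CPM with MSL2. All 3 MSL2 female libraries were thus above every other library, while the other groups overlapped each other. The mean was 9.84 ± 1.29 CPM (SD, n = 3) for control females and 16.7 ± 2.002 CPM for MSL2 females. Male means were 8.52 ± 1.56 CPM without and 8.92 ± 0.768 CPM with the transgene. The rise in females was 1.69-fold (log2 fold change 0.76 ± 0.15 SE, edgeR adjusted p = 0.0110). When the fit held only the 6 female libraries, the call was lost (0.76, edgeR adjusted p = 0.0638).

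Against control males, PGRP-SA of MSL2 females was 1.96-fold higher (log2 fold change 0.97 ± 0.15 SE, edgeR adjusted p = 0.000118). Control males and control females did not separate (-0.21, edgeR adjusted p = 0.228). MSL2 males against control males gave 0.07 ± 0.15 (edgeR adjusted p = 0.999). The difference between the effect in females and the effect in males was 0.69 ± 0.21 on the log2 scale, which was not called (edgeR adjusted p = 0.180).

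PGRP-SD, a secreted protein that takes part in the sensing of Gram-positive bacteria through Toll, rose by a similar factor although its gene is autosomal. Its level was 3.12, 3.496 and 4.13 CPM in control females and 5.98, 7.03 and 5.96 CPM in MSL2 females. Control males had 7.51, 7.36 and 7.12 CPM and MSL2 males 8.82, 9.51 and 10.2 CPM. The 4 groups did not overlap. Control females were lowest, followed by MSL2 females, then control males, then MSL2 males. The rise in females was 1.75-fold (log2 fold change 0.81 ± 0.12 SE, edgeR adjusted p = 0.00240), and in the fit of the 6 female libraries its adjusted p was 0.0616.

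Control males had 2.03-fold more PGRP-SD transcript than control females (log2 fold change 1.02 ± 0.12 SE, edgeR adjusted p = 1.03e-05). MSL2 females were not called different from control males (-0.22, edgeR adjusted p = 0.122), although median-of-ratios scaling and DESeq2 both called them lower. MSL2 males were 1.30-fold above control males with no overlap, but this was not called (0.38 ± 0.12, edgeR adjusted p = 0.279). The transgene effect did not differ detectably between females and males (0.43 ± 0.17, edgeR adjusted p = 0.305). An exon of PGRP-SD shares 35 bases with CG7492 on the opposite strand in the BDGP6 annotation, so that reads of both genes could meet there if strand was ignored. CG7492 itself was at 64.5, 62.6 and 60.7 CPM in control females and at 44.0, 58.9 and 55.1 CPM in MSL2 females. Among females this was the opposite order to PGRP-SD (edgeR log2 fold change -0.25, adjusted p = 0.101). Between the sexes in controls the order was the same, with CG7492 means of 66.9 CPM in males and 62.6 CPM in females. The part of CG7492 reads in the PGRP-SD counts was not tested.

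PGRP-LE, a receptor for the DAP-type peptidoglycan of most Gram-negative bacteria that works inside cells as well as in secreted form, was the member with the least spread between replicates. Its level was 30.3, 32.1 and 29.5 CPM in control females and 46.1, 43.7 and 41.2 CPM in MSL2 females. Control males had 21.4, 21.8 and 23.6 CPM and MSL2 males 21.4, 22.0 and 22.5 CPM. The groups were ordered MSL2 females, control females and then both groups of males, and the male groups overlapped. In females the rise was 1.43-fold (log2 fold change 0.51 ± 0.07 SE, edgeR adjusted p = 0.00147), and it was called in every alternative run, with log2 fold changes between 0.47 and 0.57.

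PGRP-LE was at 22.0 ± 0.583 CPM in MSL2 males and 22.3 ± 1.16 CPM in control males (log2 fold change -0.02 ± 0.07 SE, edgeR adjusted p = 0.999). The effect in females exceeded that in males by 0.53 ± 0.10 on the log2 scale (edgeR adjusted p = 0.0281), the only member for which this difference was called, beside 1.26% of all genes and 5.49% of X-linked genes called higher. The call was lost in 12 of 18 alternatives, with adjusted p up to 0.103, while the difference stayed between 0.48 and 0.58. These alternatives included leaving out any 1 control female, any 1 control male, any 1 MSL2 male or MSL2 female 2. MSL2 females also exceeded control males (0.97 ± 0.07, edgeR adjusted p = 1.18e-07), and control males were below control females (-0.46 ± 0.07, edgeR adjusted p = 7.62e-05).

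Against the X chromosome as a whole, both X-linked members lay in the upper part of the distribution. The 2075 X-linked genes tested had a median log2 fold change of 0.19 in MSL2 females against control females, and the 10985 autosomal genes one of -0.04. PGRP-SA exceeded the X-linked median by 0.57 and PGRP-LE by 0.32. A larger log2 fold change was found in 144 X-linked genes (6.94%) for PGRP-SA and in 351 (16.9%) for PGRP-LE. In control males against control females PGRP-SA was close to the X-linked median of -0.23, and PGRP-LE lay 0.23 below it.

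**Figure D2:**
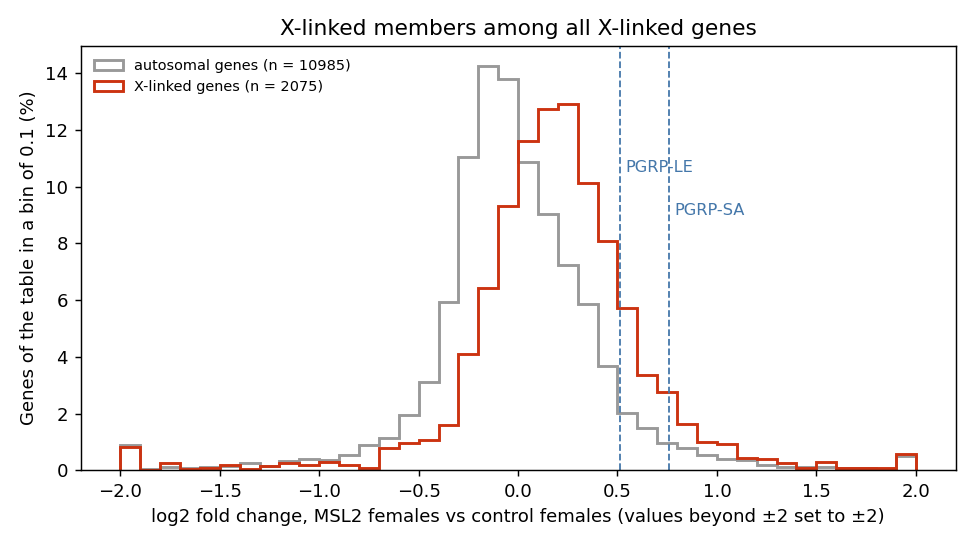
Distribution of log2 fold changes of MSL2 females against control females over 2075 X-linked (red) and 10985 autosomal genes (grey), as the percentage of each table in bins of 0.1. Dashed lines mark PGRP-LE at 0.51 and PGRP-SA at 0.76, both to the right of the X-linked median of 0.19.

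The other receptors of the Imd branch lie next to each other on 3L and were not called in females. PGRP-LC, the main membrane receptor of the pathway, had 30.3, 28.6 and 35.2 CPM in control females and 47.9, 39.3 and 34.1 CPM in MSL2 females. MSL2 female 3 lay inside the control range and the other MSL2 females above it. Its log2 fold change was 0.36 ± 0.12 SE (edgeR adjusted p = 0.0698), and it was called higher with DESeq2, without control female 3 and without MSL2 female 3. In males PGRP-LC stood at 36.6 ± 0.404 CPM in controls and 34.9 ± 1.87 CPM with MSL2 (-0.07, edgeR adjusted p = 0.999). The edgeR fit of all 12 libraries called PGRP-LC in no comparison. Control males were called above control females with median-of-ratios scaling, with DESeq2 and without control female 3. MSL2 males were called below MSL2 females with TMM from autosomal genes and without MSL2 female 3.

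PGRP-LF, a membrane protein that damps PGRP-LC signalling, had 6.71, 7.75 and 7.69 CPM in control females and 9.19, 10.3 and 7.51 CPM in MSL2 females (log2 fold change 0.28 ± 0.13 SE, edgeR adjusted p = 0.166). The female groups overlapped through MSL2 female 3, as they did for PGRP-LC, and without that library PGRP-LF was called higher (0.40, edgeR adjusted p = 0.0366). MSL2 males, at 7.11 ± 0.0221 CPM, were called below MSL2 females (-0.34 ± 0.13, edgeR adjusted p = 0.0335), a call lost in 8 of 13 alternatives. In the BDGP6 annotation 602 bases of PGRP-LF exons overlap UGP on the opposite strand, a gene at 435 to 563 CPM on average in the 4 groups, so the level of PGRP-LF is uncertain if strand was ignored.

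PGRP-LA, the neighbour of PGRP-LC, moved like it, at 14.8 ± 1.66 CPM in control females and 18.9 ± 3.89 CPM in MSL2 females (log2 fold change 0.35 ± 0.13 SE, edgeR adjusted p = 0.110). The PGRP-LC to PGRP-LA count ratio lay between 2.02 and 2.29 in all 12 libraries. PGRP-LD was at 51.0 ± 0.998 CPM in control females and 46.8 ± 1.94 CPM in MSL2 females (-0.12, edgeR adjusted p = 0.156), but 3563 bases of its exons are shared with Pmi, so its counts cannot be assigned to it alone. PGRP-SB2 had at most 6 counts in any library and was not tested.

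**Figure D3:**
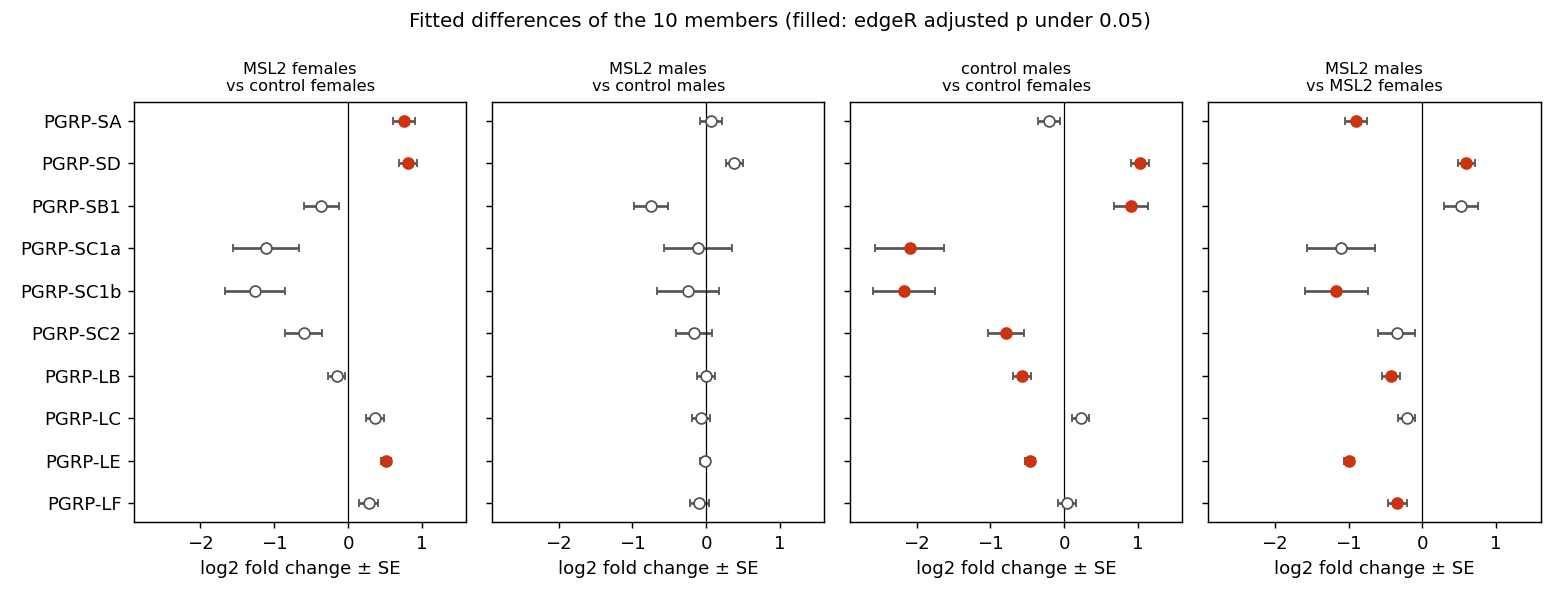
Fitted log2 fold change with 1 SE for each member in 4 comparisons, filled where edgeR's adjusted p was under 0.05. PGRP-SA, PGRP-SD and PGRP-LE are filled on the positive side for MSL2 females against control females, no member is filled for MSL2 males against control males, and the amidase genes of the PGRP-SC cluster lie furthest below 0 in control males against control females.

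All 5 amidase genes were called different between the sexes in controls, beside 71.9% of all genes. PGRP-SC1a and PGRP-SC1b, which encode near-identical secreted amidases, were 4.27-fold and 4.52-fold lower in control males than in control females (log2 fold changes -2.10 ± 0.46 and -2.18 ± 0.42 SE, edgeR adjusted p = 0.00165 and 0.000620). PGRP-SC2, a related gut amidase that limits Imd signalling, was 1.73-fold lower (-0.79 ± 0.25, edgeR adjusted p = 0.0139), a call lost without control female 2 or control male 2 (edgeR adjusted p of up to 0.0508). PGRP-LB, an amidase that removes the ligands of the Imd receptors, was 1.49-fold lower (-0.58 ± 0.12, edgeR adjusted p = 0.00124). PGRP-SB1, an amidase made by the fat body on infection, went the other way and was 1.87-fold higher in control males (0.90 ± 0.23, edgeR adjusted p = 0.00434).

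With PGRP-SD and PGRP-LE, these made 7 of 10 members called between the sexes in controls, 2 higher and 5 lower in males, and 71.9% of all genes were called in that comparison. The share of members called was thus near that of all genes, of which 34.4% were higher and 37.6% lower in males. In MSL2 males against MSL2 females 6 of 10 members were called, 1 higher and 5 lower, beside 70.1% of all genes, with 31.5% higher and 38.5% lower. PGRP-LE had the most firmly separated levels among them (-0.99 ± 0.07, edgeR adjusted p = 9.62e-08), ahead of PGRP-SA (-0.90 ± 0.15, edgeR adjusted p = 0.000200). PGRP-SD was the member called higher in MSL2 males (0.59 ± 0.12, edgeR adjusted p = 0.000737). PGRP-SB1 was also higher there, with no overlap, but was not called (0.52 ± 0.23, edgeR adjusted p = 0.0666). PGRP-SC1a was lower and not called (-1.10 ± 0.46, edgeR adjusted p = 0.0524). Some alternatives called PGRP-SB1 and PGRP-SC1a. The call of PGRP-LB (-0.42 ± 0.12, edgeR adjusted p = 0.00933) ended in the fit of these groups alone, and that of PGRP-SC1b (-1.16 ± 0.42, edgeR adjusted p = 0.0280) in 5 of 13 alternatives, including without MSL2 female 2, MSL2 female 3 or MSL2 male 2, and its groups overlapped. In MSL2 females against control males, PGRP-SA, PGRP-LE and PGRP-LB were higher and PGRP-SB1 lower, beside 69.9% of all genes called, with 38.6% higher and 31.3% lower. These comparisons share groups with each other and are not independent.

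PGRP-SC1a was at 29.0, 27.5 and 15.3 CPM in control females and at 5.42, 14.8 and 13.2 CPM in MSL2 females. Control males had 6.13, 3.11 and 7.48 CPM and MSL2 males 6.71, 2.63 and 6.15 CPM. All MSL2 female libraries were below all control female libraries, but control female 3 was close to MSL2 female 2. The 2.16-fold lower mean was not called (log2 fold change -1.11 ± 0.45 SE, edgeR adjusted p = 0.129). PGRP-SC1b followed it, at 21.3, 21.1 and 12.5 CPM in control females and 3.58, 9.98 and 9.48 CPM in MSL2 females (-1.26 ± 0.41, edgeR adjusted p = 0.0716). DESeq2 and the fit without control female 3 did call PGRP-SC1b lower.

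The count ratio of PGRP-SC1a to PGRP-SC1b stayed between 1.20 and 1.65 in all libraries, and reads may have been split between these paralogs. With their counts summed, MSL2 females were still not called against control females (-1.17 ± 0.43, edgeR adjusted p = 0.104). PGRP-SC2 was at 91.5, 125.9 and 94.0 CPM in control females and 47.7, 78.9 and 78.9 CPM in MSL2 females, again with no overlap and no call (log2 fold change -0.60 ± 0.25 SE, edgeR adjusted p = 0.136). In males none of the 3 PGRP-SC genes was called with the transgene (-0.11 ± 0.46, -0.25 ± 0.42 and -0.16 ± 0.25 SE, edgeR adjusted p = 0.999 for each). Their transgene effects were not called different between females and males (edgeR adjusted p = 0.534, 0.498 and 0.614).

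The PGRP-SC genes also varied most between replicates. The within-group SD of log2 CPM was 0.68 for PGRP-SC1a and 0.61 for PGRP-SC1b, which only 2.03% and 3.22% of the 13060 genes exceeded, and 0.07 for PGRP-LE, which 91.9% exceeded. MSL2 female 1, control male 2 and MSL2 male 2 had the lowest level of all 3 PGRP-SC genes within their groups. The same libraries had the lowest sum over the 20 gut markers within their groups, at 5748, 4077 and 3861 CPM. Among control females, number 3 had the lowest marker sum, PGRP-SC1a and PGRP-SC1b, but number 1 the lowest PGRP-SC2. Between groups, the gut marker sum was 7437 ± 1215 CPM in control females and 7585 ± 1619 CPM in MSL2 females, whereas control males had 5028 ± 1119 and MSL2 males 5183 ± 1206 CPM. None of the 20 markers was at 0 in a group. Of the 20 gut markers 1 rose and 1 fell in MSL2 females, with a median log2 fold change of -0.09. The part of gut content in the PGRP-SC levels was not tested.

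**Figure D4:**
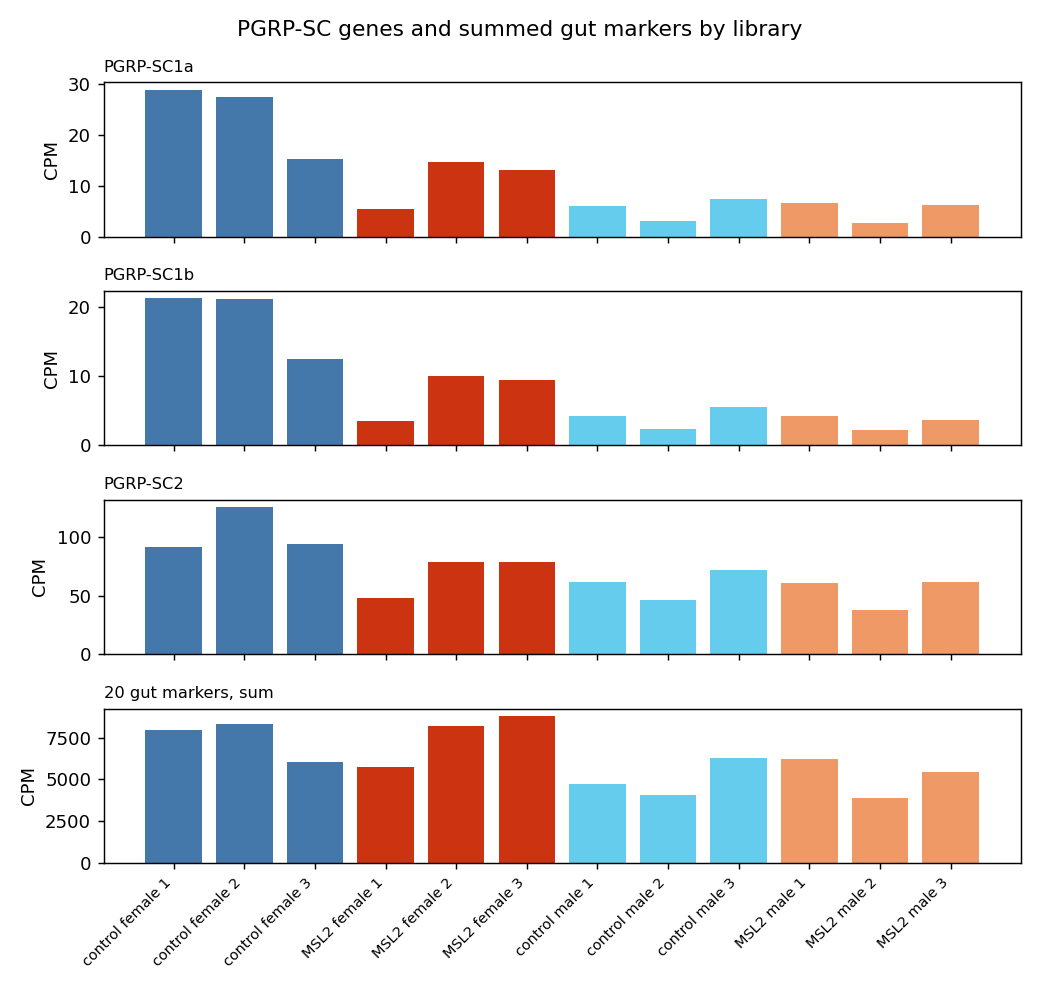
Levels of PGRP-SC1a, PGRP-SC1b and PGRP-SC2 and the sum over 20 gut marker genes in each of the 12 libraries, in CPM on axes from 0. The PGRP-SC bars are highest in the control females. MSL2 female 1, control male 2 and MSL2 male 2 are the lowest bars of their groups in all 4 panels.

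PGRP-LB was at 28.6, 34.5 and 33.6 CPM in control females and 30.7, 26.8 and 29.1 CPM in MSL2 females, which overlapped (log2 fold change -0.16 ± 0.12 SE, edgeR adjusted p = 0.407). In males it had the same mean in both groups, 21.6 ± 2.38 CPM in controls and 21.6 ± 3.05 CPM with MSL2. The MSL2 females kept a level above control males (0.42 ± 0.12, edgeR adjusted p = 0.00962).

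PGRP-SB1 had its highest level in the control males, with 41.3, 49.98 and 35.8 CPM, and MSL2 males had 24.7, 27.8 and 23.3 CPM. These male groups did not overlap, and the 1.68-fold lower level was not called (log2 fold change -0.74 ± 0.23 SE, edgeR adjusted p = 0.288). DESeq2 and the fit of the 6 male libraries, 2 of 13 alternatives, did call it. In females the ranges were 16.0 to 30.4 CPM in controls and 13.0 to 21.1 CPM with MSL2 and overlapped (-0.36, edgeR adjusted p = 0.318). The gap between MSL2 females and control males was the widest called difference of PGRP-SB1 (-1.27 ± 0.24, edgeR adjusted p = 0.000483).

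Per length, PGRP-SC2 had the most abundant transcript of the family in every group, from 72.0 CPM per kilobase of transcript in MSL2 males to 139.2 in control females. PGRP-SB1 came next in control males with 68.0 CPM per kilobase. PGRP-SC1a was second in control females with 40.7 and eighth in control males with 9.48. At the lower end, PGRP-SD had 4.97 CPM per kilobase in control females and PGRP-LF between 5.25 and 6.65 in the 4 groups. PGRP-SC1b was last in both male groups, with 3.54 in controls and 2.98 with MSL2. Lengths are medians over the transcripts of the BDGP6 annotation, which for PGRP-SC1b, PGRP-LC and PGRP-LE differ widely in length, so the order of neighbouring genes is approximate.

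The tables hold 1 transcript for 8 of the members, 3 for PGRP-LB and 6 for PGRP-LC. The labels do not say how reads shared by isoforms were assigned. The PGRP-LC transcript with the fewest counts had 24.4% ± 0.443 (SD, n = 3) of the counts of the fullest one for control females and 25.9% ± 1.06 for MSL2 females. Its share was 25.0% ± 0.766 for control males and 28.6% ± 2.11 for MSL2 males. The other PGRP-LC transcripts had between 75.9% and 85.5% of it in every library. For PGRP-LB, the 2 lesser transcripts had between 70.6% and 81.3%.

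Profiles over the 12 libraries were compared as the root mean square difference of log2 CPM, each gene centred on its own mean. Differences between the groups enter this measure. The nearest member to PGRP-SC1a was PGRP-SC1b (0.14), and no other gene of the 13059 was closer. Reads may have been split between these near-identical paralogs, so like expression and shared reads cannot be told apart here. PGRP-SA and PGRP-LE were each other's nearest member (0.19), with 0.436% of all genes closer to PGRP-SA and 2.44% closer to PGRP-LE. PGRP-LC and PGRP-LF were also each other's nearest member (0.16), with 6.49% of all genes closer to PGRP-LC and 3.48% closer to PGRP-LF. Among 8671 genes with a mean log2 CPM of at least 3, those nearest to PGRP-SA were CG32581 (0.13), pn (0.13) and CG7526 (0.14). The nearest to PGRP-SD were Cpr47Ef (0.17), CG2082 (0.19) and CG5639 (0.20).

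Lists of other pathway genes had 1 called gene each in MSL2 females, beside 10.3% of all genes called. Unadjusted p-values under 0.05 were found for 6 Toll, 4 Imd signalling, 2 negative regulator and 3 effector genes. They were found for 3912 of the 13060 genes tested. Of 22 genes of the Toll pathway 1 rose and 21 were not called (median log2 fold change 0.11). It was the X-linked spirit, which encodes a serine protease upstream of Toll, with 5.14, 5.99 and 5.76 CPM in control females and 12.4, 11.6 and 12.7 CPM in MSL2 females. The rise of spirit was 1.12 ± 0.10 on the log2 scale (edgeR adjusted p = 0.000180), and its transgene effect in females exceeded that in males by 0.96 ± 0.15 (edgeR adjusted p = 0.0152). That last call was lost without MSL2 male 3 (edgeR adjusted p = 0.0535) and with the replicate block (edgeR adjusted p = 0.0674).

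Of 13 genes of Imd signalling only Uev1A, a ubiquitin-conjugating enzyme variant, was called. It fell from 202.1 ± 6.04 to 168.9 ± 12.8 CPM (log2 fold change -0.26 ± 0.07 SE, edgeR adjusted p = 0.0341), and the call was lost without any 1 of the female libraries but MSL2 female 3 (edgeR adjusted p of up to 0.118). Uev1A was also lost with the replicate block (edgeR adjusted p = 0.0772), in the fit of the 6 female libraries (edgeR adjusted p = 0.207) and with both other scalings in edgeR. Of 7 negative regulators of Imd only trbd, a deubiquitinase acting on Tak1 signalling, was called, rising from 75.4 ± 6.30 to 101.8 ± 8.38 CPM (0.43 ± 0.08, edgeR adjusted p = 0.00863). In the fit of the 6 female libraries trbd lost its call (edgeR adjusted p = 0.1001). Of 19 antimicrobial effector genes tested, of 21 in the tables, only CecA1, a cecropin gene, was called (2.17 ± 0.50, edgeR adjusted p = 0.0221), from 9 to 16 counts in control female libraries to between 21 and 55 in MSL2 females. CecA1 was no longer called without any 1 control female or without MSL2 female 2 (edgeR adjusted p of up to 0.0603), nor with the replicate block (edgeR adjusted p = 0.0560) or in the fit of the 6 female libraries (edgeR adjusted p = 0.135). The median of the effector genes was 0.14.

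In MSL2 males none of these 4 lists had a called gene, beside 106 called genes in all. An unadjusted p under 0.05 was found for 1 Imd signalling gene, 4 effector genes, 0 Toll genes and 0 negative regulators. It was found for 1031 of the 13060 genes tested. Between control males and control females, 4 Toll genes were higher and 10 lower in males, 2 and 9 of Imd signalling, 2 and 3 of the negative regulators and 2 and 5 of the effector genes. Over all genes, 34.4% were higher and 37.6% lower in males. The serine protease homologues sphinx1 and sphinx2 were almost absent in females, at 0.0403 and 0.0457 CPM against 5.02 and 11.8 CPM in control males. The antifungal peptide gene Drs was lower in control males (-2.05 ± 0.15, edgeR adjusted p = 1.43e-07) and CecA1 higher (5.48 ± 0.45, edgeR adjusted p = 4.31e-07).

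**Figure D5:**
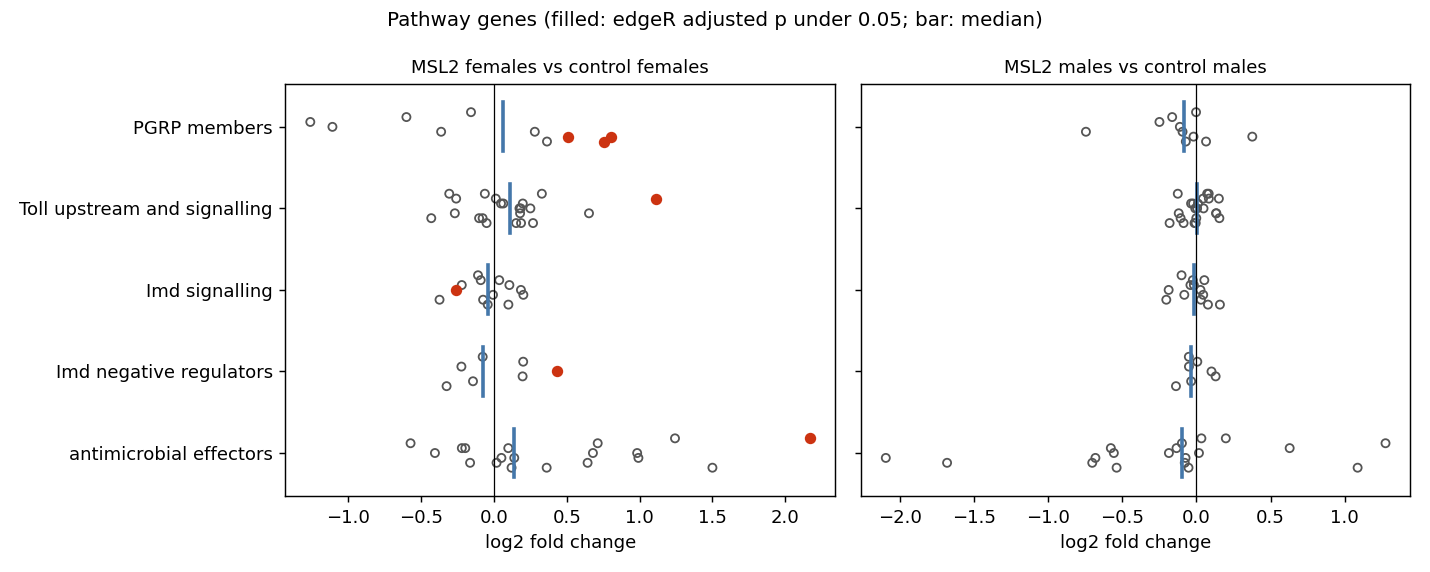
Log2 fold changes of the 10 members and of 4 lists of pathway genes, for MSL2 females against control females (left) and MSL2 males against control males (right). Each point is a gene, filled where edgeR's adjusted p was under 0.05, and the bar is the median of the list. In females 3 members and 1 gene of each pathway list are filled, and in males none.

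Markers of other tissues moved as follows in MSL2 females against control females. Of 14 ovary markers none was called (median log2 fold change -0.61, 4 with an unadjusted p under 0.05). Their sums, mostly yolk protein transcripts, did not overlap between the groups. Of 12 hemocyte markers none was called (median 0.03, 3 with an unadjusted p under 0.05). Their sums were 1849 ± 214 CPM in control females and 1848 ± 215 CPM in MSL2 females. Most of these sums came from Cg25C and vkg. Their means were 864 and 561.7 CPM in control females and 864.1 and 576.6 CPM in MSL2 females. Of 11 fat body markers 1, Fbp1, rose (median 0.24, 6 with an unadjusted p under 0.05), with sums of 1843 to 2111 CPM in control females and 2238 to 2701 CPM in MSL2 females. Of 12 testis markers none was called by edgeR and 0 had an unadjusted p under 0.05. Over all 13060 genes tested, 10.3% were called and 3912 had an unadjusted p under 0.05. The part of these differences in the levels of PGRP-SA, PGRP-SD and PGRP-LE was not tested.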

How the data were processed

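The authors deposited an autosomal and an X-linked table of RNA-seq read counts for each RefSeq transcript in 12 libraries of whole flies. A second deposited column for each library, headed as normalized, was found to be a fraction: the count over the total of its own table. It was not used. The submitters' processing notes name TopHat, HTSeq and dm3, without versions; the labels' protocols name TRIZOL and a TruSeq RNA kit. Strand handling is not stated.

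Through RefSeq, 14 gene names that had turned into dates were restored. The transcript with the highest total count stood for its gene. Both tables were fitted together with edgeR 4.0.16 in R 4.3.3: TMM scaling, filterByExpr (minimum count 10), group means over 12 samples, quasi-likelihood F test, and Benjamini-Hochberg adjustment over 13060 genes with a threshold of 0.05. The SE was taken as the size of the log2 fold change over the root of F. The steps were tested on simulated data. Alternatives were DESeq2 1.42.0, 2 other scalings, no filter, means over transcripts, a replicate block, only the groups compared, and leaving out each library. A fit with PGRP-SC1a and PGRP-SC1b counts summed was added after seeing the data. The labels call the samples biological replicates without saying what each held, so p-values measure the spread between these samples.

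Chromosome arms come from RefSeq Release 6, and lengths and overlaps from the Ensembl annotation of BDGP6. The files use dm3, so no coordinates are given. Of 13 hemocyte symbols 1 was not found. Members, gene lists and tests were chosen with earlier results of these data known. All 10 members are given for MSL2 females against control females. In the other comparisons some members that were not called are left out. List genes are named by smallest p. The genes nearest in profile to PGRP-LE are not reported here.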

Additional observations from a re-analysis of the deposited data

Results flagged for a closer look

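PGRP-LE was the member whose difference with the transgene was not the same in both sexes by a test of that difference. The effect in females minus the effect in males was 0.53 on the log2 scale (± 0.10 SE, edgeR adjusted p = 0.0281), with all 3 MSL2 females above all 3 control females and the male groups overlapping. Most alternatives that left out a library lost this call, and groups of 3 are too small for a search for single deviating libraries.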

How the results depend on the processing

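Of 836 values of the 10 members under alternatives, 758 kept direction and side of the threshold. Many of these belong to differences that were not called. In MSL2 females against control females, 1 of 3 called members kept the call in every alternative. This held for 4 of 4 in MSL2 females against control males and 6 of 7 in control males against control females. It held for 3 of 6 in MSL2 males against MSL2 females and 0 of 1 for the difference between transgene effects. In MSL2 females against control females (1344 genes and 3 members called), the replicate block called 669 genes, DESeq2 2030 genes and 5 members, and a fit of the groups compared alone 156 genes and 1 member, PGRP-LE. Leaving out 1 library gave 543 (without control female 2) to 2851 genes (without MSL2 female 3) and 3 to 5 members. In MSL2 males against control males (106 genes, 0 members), the block called 51 genes, DESeq2 282 genes and 1 member, the groups alone 287 genes and 1 member, and leaving out 1 library 41 to 57 genes. For the transgene effect in females minus that in males (165 genes, 1 member), the block called 10 genes and 0 members, DESeq2 421 genes, median-of-ratios scaling 0 members, and leaving out 1 library 23 to 250 genes and 0 to 1 members. The causes were not tested.

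The labels do not say whether same-numbered samples share a batch. Of 18 pairs, correlations of deviations ran from -0.556 to 0.598, the highest for control male 2 and MSL2 male 2. Of these correlations 5 exceeded 0.1, and 4 samples matched best with their own number. Among members the replicate block ended the calls of PGRP-SC1b and PGRP-LF in MSL2 males against MSL2 females and of PGRP-LE in the difference between the transgene effects in females and males. Of list genes it ended the calls of Uev1A and CecA1 in MSL2 females and of spirit in that difference.

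Among members, only differences that were not called changed sign. On the log2 scale, PGRP-LF in control males against control females became -0.0098 with TMM from autosomal genes and ran from -0.079 to 0.072 when 1 library was left out. In MSL2 males against control males, leaving out 1 library gave -0.028 to 0.23 for PGRP-SA, -0.39 to 0.21 for PGRP-SC1a, -0.50 to 0.038 for PGRP-SC1b, -0.31 to 0.039 for PGRP-SC2, -0.082 to 0.12 for PGRP-LB, -0.043 to 0.028 for PGRP-LE and -0.14 to 0.0068 for PGRP-LF. There PGRP-LB was 0.00038 with median-of-ratios scaling and 0.00024 with DESeq2. The causes were not tested. CecA1 rests on 37 counts in all over the control females.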
